A study of Arabidopsis thaliana with 72 samples.

Results

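The 7 genes described here belong to the evening arm of the circadian clock of Arabidopsis thaliana and to its blue-light photoreceptors. They are GI (AT1G22770), ELF3 (AT2G25930), ELF4 (AT2G40080), LUX (AT3G46640, also named PCL1), FKF1 (AT1G68050), ZTL (AT5G57360) and LKP2 (AT2G18915). They were picked by identifier, with earlier results of these data known, and they make up 7 of the 22884 genes in the deposited table. All 7 passed the filter on low values in both tissues, but in shoots that filter removed no gene of the table.

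Plants keep time with a feedback loop in which morning factors such as CCA1 and LHY repress evening genes, and evening factors repress the morning and daytime genes in turn. ELF3, ELF4 and LUX form the evening complex, a repressor in which LUX binds DNA, ELF3 is the scaffold and ELF4 helps to bring the complex into the nucleus. GI is a large nuclear and cytosolic protein that stabilises ZTL and, with FKF1, releases the flowering regulator CO from repression. ZTL, FKF1 and LKP2 are F-box proteins with a blue-light-sensing LOV domain that mark clock and flowering regulators for degradation.

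Seedlings 14 days old, grown on agar plates with 16 h of light and 8 h of dark, were given 8 mL per plate of 21 μM t-chalcone, a natural phytotoxin with the carbon skeleton of flavonoids. Controls were given 0.1% ethanol (EtOH), and the labels name no mutant allele or transgene in any group. Treatment was 7 h after lights on, so by the labels the times 0, 1, 3, 6 and 12 h lay 7, 8, 10, 13 and 19 h after lights on, and 24 h was the same time of day as 0 h. RNA of shoots and of roots was sequenced from EtOH at each of these 6 times and from t-chalcone at each but 0 h, with 3 libraries in each of the 22 groups. A further 6 untreated columns at 0 h were identical to the EtOH columns at 0 h and were counted with them. The labels do not say that replicates came from separate plates, so p-values cover only the variation among these libraries, which may be technical. In whole shoots and roots, fewer cells of a type and less RNA per cell cannot be told apart.

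Levels are the deposited values, gene counts divided by the authors' size factors per library. They carry no correction for gene length, so levels are compared between samples of a gene and never between genes. Totals of the recovered reads were 0.128 to 22.5 M (mega) per library in roots (median 10.3 M) and 0.246 to 26.0 M in shoots (median 14.5 M). Low totals, under 0.5 M, were found in replicate 1 of EtOH at 0 h and at 3 h in roots, and in replicate 2 of EtOH at 12 h, replicate 3 of EtOH at 24 h and replicate 2 of t-chalcone at 24 h in shoots. The lowest value listed in such a library was as high as 40.5, so a gene at that value cannot be told from an unread gene, and many results that rest on these libraries are also given without them. Whole numbers of reads were recovered by setting the lowest value of a library to 1. None is 0, so 1 may have been added to every count before deposit, and the reads behind a low value may then be fewer than its whole number. The tissue labels matched the means of their markers. The mean log2 level of 8 shoot markers was 12.2 to 15.6 over the shoot libraries and 5.97 to 9.14 over those of roots. That of 8 root markers was 3.19 to 6.12 in shoots and 8.13 to 9.94 in roots. Taken singly, CAB2, LHCB2.1, MYB36, PRP3 and SHV2 did not have every library on the expected side, and the other markers did. Fold changes below are log2 differences of value + 1 with limma's standard error, and adjusted p-values are from limma with Benjamini-Hochberg adjustment over all genes tested, called under 0.05.

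The controls were described first, since these genes follow the time of day. In EtOH the levels of GI, ELF3, ELF4, LUX and FKF1 differed between times in both tissues, which is 5 of the 7 genes in each, by an F test over the 6 EtOH groups that called 35.8% of all genes in roots and 41.3% in shoots. ZTL and LKP2 did not pass it (adjusted p = 0.0707 and 0.106 in roots, 0.0854 and 0.173 in shoots). Without the libraries under 0.5 M, both passed in shoots (0.018 and 5.82e-05) and neither in roots. The contrasts with 0 h share the 0 h libraries. Over all 5 times they called 20 of 35 gene and time pairs in roots and 15 of 35 in shoots, where 25%, 18.8%, 19.1%, 17.3% and 20.7% of all genes were called at 1, 3, 6, 12 and 24 h in roots and 13.8%, 5.35%, 6.75%, 29.1% and 18.1% in shoots.

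FKF1, the F-box photoreceptor that acts with GI on flowering time, moved over a wide range in shoots. Its values were 15.7, 22.2 and 21.9 at 0 h, 322, 295 and 399 at 1 h, 37.1, 36 and 36 at 3 h and 659, 588 and 674 at 6 h. At 12 h they were 0.425, 40.5 and 0.474 and at 24 h 0.831, 3.86 and 21, each the lowest value of its library, so FKF1 was not detectable there and no fold is given. The levels were thus high at 1 h and 6 h, low at 0 h and 3 h and at the bottom of the range at 12 h and 24 h, with no overlap between the 1 h or 6 h libraries and those of any other time. FKF1 rose over 0 h at 1 h by 4.02 ± 0.85 and at 6 h by 4.95 ± 0.85 on the log2 scale (adjusted p = 0.00133 and 0.000356). In roots the same gene stood at 27, 50.1 and 52.7 at 0 h, 143, 111 and 95.9 at 1 h, 35.3, 78.9 and 87.9 at 3 h, 102, 86.3 and 97.2 at 6 h, 2.55, 1.66 and 2.86 at 12 h and 4.71, 2.1 and 3.37 at 24 h. Its root libraries at 12 h and 24 h all lay below those of the first 4 times, by -3.68 ± 0.34 and -3.32 ± 0.34 against 0 h (adjusted p = 2.59e-09 and 1.32e-08), or -3.98 ± 0.31 and -3.62 ± 0.31 without the libraries under 0.5 M. The first replicate at 0 h and at 3 h in roots is a library under 0.5 M with FKF1 at its lowest value. The first replicate at 12 h in roots, with a total of 2.25 M, also held FKF1 at its lowest value. The fold at 12 h is thus in part against an undetected level.

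ELF4, the small subunit of the evening complex, followed a like course. In shoots it read 12.2, 8.02 and 9.74 at 0 h, 129.9, 86.1 and 147 at 1 h, 15.1, 15.3 and 10.7 at 3 h, 286, 383 and 440.0 at 6 h, 1.7, 40.5 and 1.9 at 12 h and 3.33, 3.86 and 21 at 24 h. The 6 h libraries were above all others and the 1 h libraries above the rest. The values of 40.5 at 12 h and 21.0 at 24 h are the lowest values of libraries under 0.5 M. That of 3.86 at 24 h is the lowest value of a library above that limit. ELF4 rose by 3.45 ± 0.71 at 1 h and by 5.07 ± 0.71 at 6 h (adjusted p = 0.000991 and 2.58e-05). Limma called it lower than at 0 h at 12 h and 24 h without the libraries under 0.5 M and not with them (-1.96 ± 0.36 and -1.24 ± 0.36, against -0.66 ± 0.71 and -0.49 ± 0.71 with them), and edgeR over all libraries called it lower at 12 h. The fall at 24 h is in part against a library with ELF4 at its lowest value, so it is no measured fold. In roots ELF4 read 108, 71.2 and 89.9 at 0 h, 379.9, 315 and 316 at 1 h, 106, 98.2 and 141 at 3 h, 657, 823 and 852 at 6 h, 12.8, 20.3 and 22.9 at 12 h and 14.1, 19.4 and 18.2 at 24 h. In roots the 6 h libraries were again highest and those of 1 h next, and those of 12 h and 24 h overlapped at the bottom. Against 0 h it rose in roots by 3.11 ± 0.28 at 6 h and fell by 2.31 at 24 h (adjusted p = 1.61e-09 and 3.22e-07).

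LUX, the DNA-binding subunit, was highest at 1 h in both tissues. Its values in shoots were 175, 236 and 192 at 0 h, 1143, 899 and 1231 at 1 h, 153, 184 and 177 at 3 h, 869, 733 and 819.7 at 6 h, 75.7, 40.5 and 81.5 at 12 h and 49.9, 15.4 and 41.9 at 24 h. The libraries of 0 h and 3 h overlapped, those of 1 h and 6 h lay well above them without overlapping each other, and those of 12 h and 24 h lay below. The rises at 1 h (2.43 ± 0.29) and 6 h (2.01 ± 0.29) and the falls at 12 h (-1.65 ± 0.29) and 24 h (-2.60 ± 0.29) all passed the test. The value of 40.5 at 12 h is the lowest value of a library under 0.5 M. That of 41.9 at 24 h is from another such library, whose lowest value was 21.0. Both falls were also called without the libraries under 0.5 M. In roots LUX stood at 221 ± 107 (SD, n = 3) at 0 h, 526 ± 60.6 at 1 h, then 198 ± 22.8 at 3 h and 412 ± 32.2 at 6 h, and finally 66.5 ± 12.4 at 12 h and 61.1 ± 7.89 at 24 h, and the same 4 times were called in the same directions, also without the libraries under 0.5 M. The rise at 6 h in roots was 1.03 ± 0.24 with and 0.58 ± 0.19 without them.

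ELF3, the scaffold of the complex, moved less. In shoots it stood at 497 ± 44.7 at 0 h (SD, n = 3), 789 ± 110.4 at 1 h, then 348 ± 4.53 at 3 h and 871 ± 38.2 at 6 h, and finally 245 ± 174 at 12 h and 109 ± 21.2 at 24 h. The 3 values behind the 12 h mean were 131, 445 and 158, of which the highest came from a library under 0.5 M. In shoots ELF3 fell at 12 h and 24 h (-1.24 ± 0.31 and -2.20 ± 0.31, or -1.78 ± 0.18 and -2.31 ± 0.18 without the libraries under 0.5 M). Limma without those libraries, and edgeR over all libraries, also called it higher at 1 h and 6 h and lower at 3 h in shoots. In roots it stood at 320.1 ± 92.7 at 0 h, 790.0 ± 42.9 at 1 h, then 519.6 ± 145 at 3 h and 746 ± 61.3 at 6 h, and finally 373 ± 38.3 at 12 h and 374 ± 74.2 at 24 h. There it rose at 1, 3 and 6 h (1.34 ± 0.20, 0.70 ± 0.20 and 1.26 ± 0.20), and at 12 h and 24 h the libraries overlapped those of 0 h.

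GI differed between the tissues in the shape of its course. In shoots its values were 549.9, 665 and 526 at 0 h, 1563, 1135 and 1499 at 1 h, 812, 828 and 821 at 3 h, 1571, 1628 and 1522 at 6 h, 76.5, 40.5 and 80.6 at 12 h and 107, 124 and 83.8 at 24 h. The level was highest at 6 h and 1 h, whose libraries overlapped, and the libraries of 12 h and 24 h lay below all others. In roots GI read 703, 1105 and 1169 at 0 h, 976, 720.3 and 868 at 1 h, 811, 887 and 941 at 3 h, 573, 284 and 185 at 6 h, 339, 303 and 317 at 12 h and 493, 489 and 297 at 24 h. The first 3 times overlapped in roots, and every library of 6, 12 and 24 h lay below them. Against 0 h, GI at 6 h was 1.44 ± 0.23 in shoots and -1.63 ± 0.29 in roots, both past the test and opposite in sign (adjusted p = 0.000149 and 0.000118). The root value was -1.86 ± 0.31 without the libraries under 0.5 M.

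ZTL, the clock photoreceptor, and its relative LKP2 stayed within narrow ranges. The EtOH group means of ZTL ran from 298 to 479.7 in shoots and from 132 to 207 in roots, and those of LKP2 from 157 to 247 in shoots and from 91.6 to 159.7 in roots. The lowest root means of both, at 0 h, hold a library under 0.5 M in which LKP2 was at the lowest value. At 1 h in roots limma called both higher than at 0 h (0.71 ± 0.21 for ZTL and 1.08 ± 0.38 for LKP2), and neither without such libraries (0.40 ± 0.16 and 0.36 ± 0.16). EdgeR called ZTL there with and without the libraries under 0.5 M, and LKP2 in neither fit. Without such libraries, the spread between the highest and lowest EtOH group was 7.03 (log2) for ELF4, 5.23 for LUX, 4.31 for GI and 3.12 for ELF3 in shoots, against 0.48 for ZTL, 0.69 for LKP2 and a median of 0.95 over 18765 genes. No spread is given for FKF1 in shoots, where its lowest groups were not detectable. In roots the order was ELF4 (5.42), FKF1 (5.13), LUX (3.09), GI (1.86), ELF3 (1.10), LKP2 (0.49) and ZTL (0.40), with a median of 0.59 over 19015 genes. The lowest root group of FKF1, at 12 h, holds a library in which it was at the lowest value. By the labels, 24 h repeats the time of day of 0 h. At 24 h GI, LUX, ELF4 and FKF1 were nevertheless lower than at 0 h in roots, and GI, LUX and ELF3 in shoots, where ELF4, FKF1 and LKP2 were also called lower without the libraries under 0.5 M. In those shoot libraries at 24 h ELF4 was in part, and FKF1 always, at the lowest value of the library. Several of the genes were also high at 1 h, low at 3 h and high again at 6 h. Whether the harvest times are as labelled was not tested, and every contrast between times rests on those labels.

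**Figure D1:**
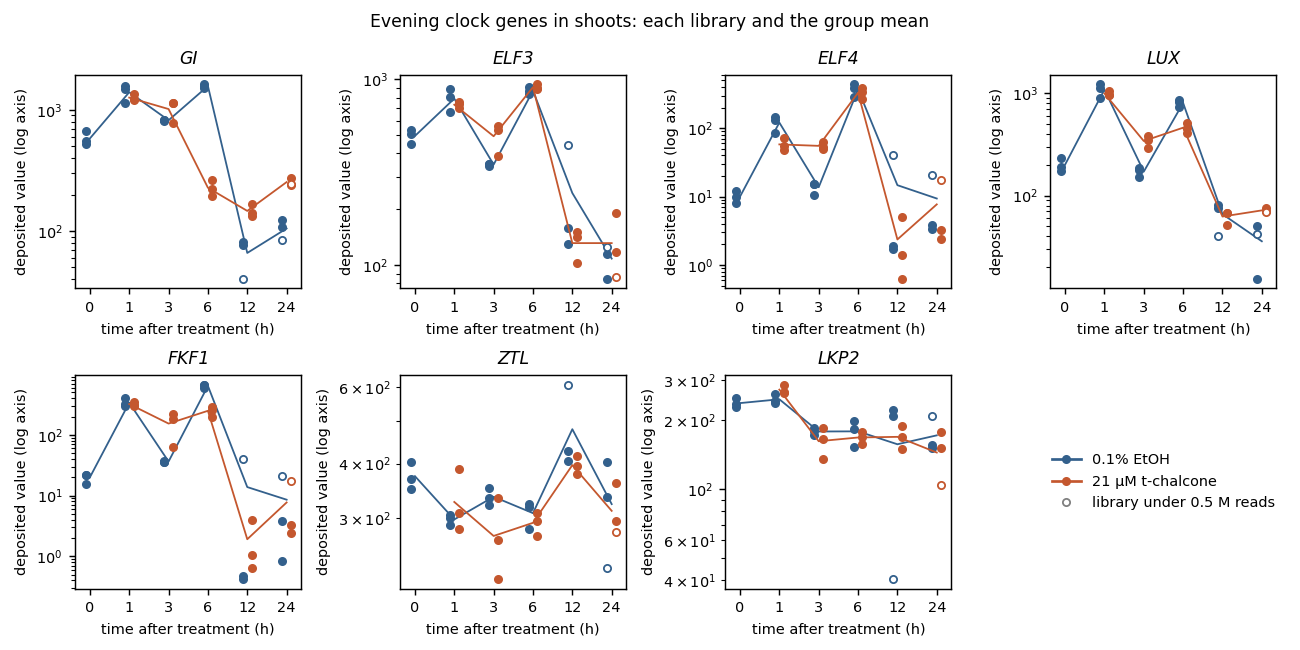
Deposited values (log axis) of the 7 genes in shoots by time after treatment, each point a library and each line the mean of 3 libraries. GI, ELF3, ELF4, LUX and FKF1 in EtOH were high at 1 h and 6 h, the means of GI, ELF3 and LUX were lowest at 12 h and 24 h, and GI in t-chalcone at 6 h (194 to 265) lay far below EtOH (1522 to 1628); open points are libraries under 0.5 M.

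**Figure D2:**
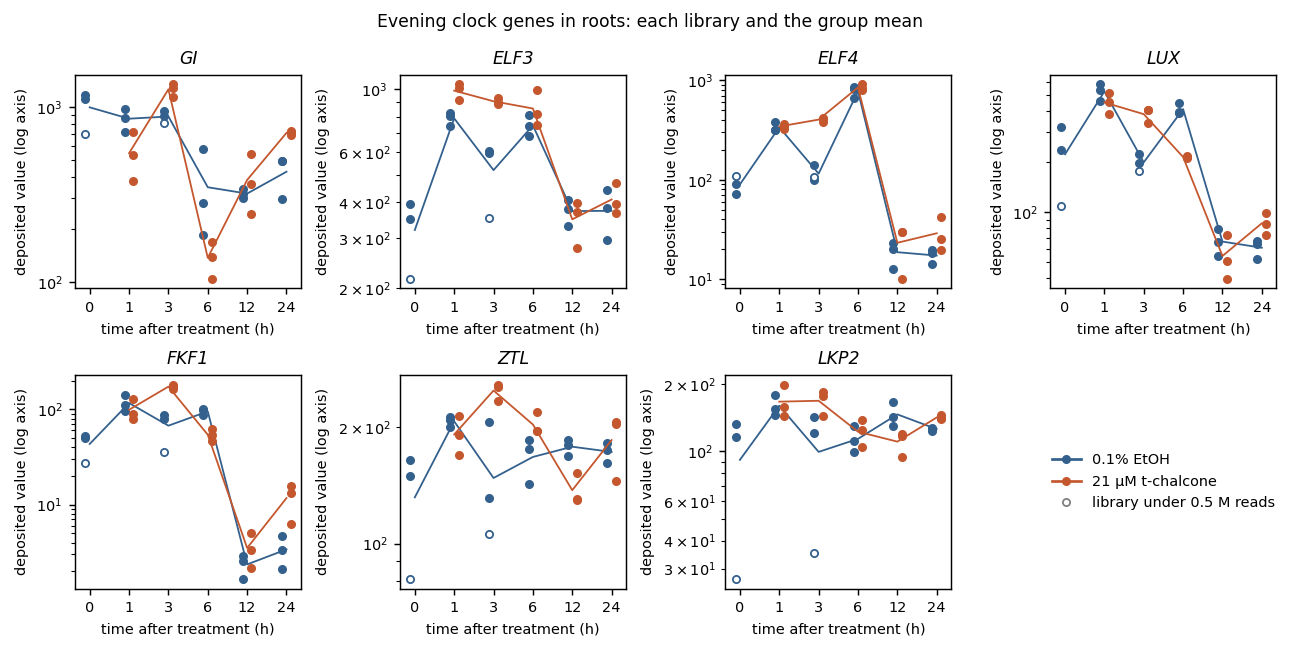
The same plot for roots, with deposited values on a log axis, a point per library and lines through means of 3 libraries. At 3 h the t-chalcone libraries of ELF4 (378 to 420) lay above those of EtOH (98.2 to 141); open points are libraries under 0.5 M.

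With t-chalcone, 5 of the 7 genes rose over EtOH at 3 h in roots, and GI fell at 6 h and rose at 12 h and 24 h in shoots. At 3 h in roots 5 of the 7 genes rose (ELF4, FKF1, LUX, ELF3 and ZTL), where 13.6% of all genes were called, and the same 5 rose without the libraries under 0.5 M, where 8.54% were called. The median over the 7 was 0.95 (log2) against 0.15 over all genes, and 0.59 against 0.07 without those libraries. Under edgeR on the recovered reads the median over all genes was -0.01, and the same 5 genes were called higher. At 3 h in shoots none of the 7 was called (limma, 0.035% of all genes called), while 3 had an unadjusted p under 0.05. Without the libraries under 0.5 M, ELF4, FKF1 and LUX rose there, 3 of 7 where 6.84% of all genes were called, and edgeR on the recovered reads called these 3 as well.

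At 6 h in shoots GI fell, 1 of 7 where 1.55% of all genes were called, and without the libraries under 0.5 M GI, FKF1 and LUX fell, 3 of 7 against 23.2% of all genes. At 6 h in roots none was called (limma, 0.449% of all genes called), with 3 at an unadjusted p under 0.05. GI and LUX fell there without those libraries (2 of 7, 1.24% of all genes called), and edgeR called GI, LUX and FKF1. At 1 h no gene was called in roots (4.61% of all genes called, 8.81% without the libraries under 0.5 M) or in shoots (0.0481% and 0.481%). In roots 1 and in shoots 0 of the 7 had an unadjusted p under 0.05 at 1 h, and edgeR called 0 in roots and 1, ELF4, in shoots.

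At 12 h GI rose in shoots (1 of 7, 0.76% of all genes called), also without the libraries under 0.5 M (1 of 7, 4.34%). In roots at 12 h no gene was called by limma (0.0302% of all genes, or 0.716% without those libraries) or by edgeR, and 0 of the 7 had an unadjusted p under 0.05. At 24 h GI rose in shoots (1 of 7, 1.14%), and without the libraries under 0.5 M GI, LUX and ELF3 rose (3 of 7, 12.8%). In roots at 24 h FKF1 was called higher (1 of 7, 1.91%), with and without those libraries (12.8% without).

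**Figure D3:**
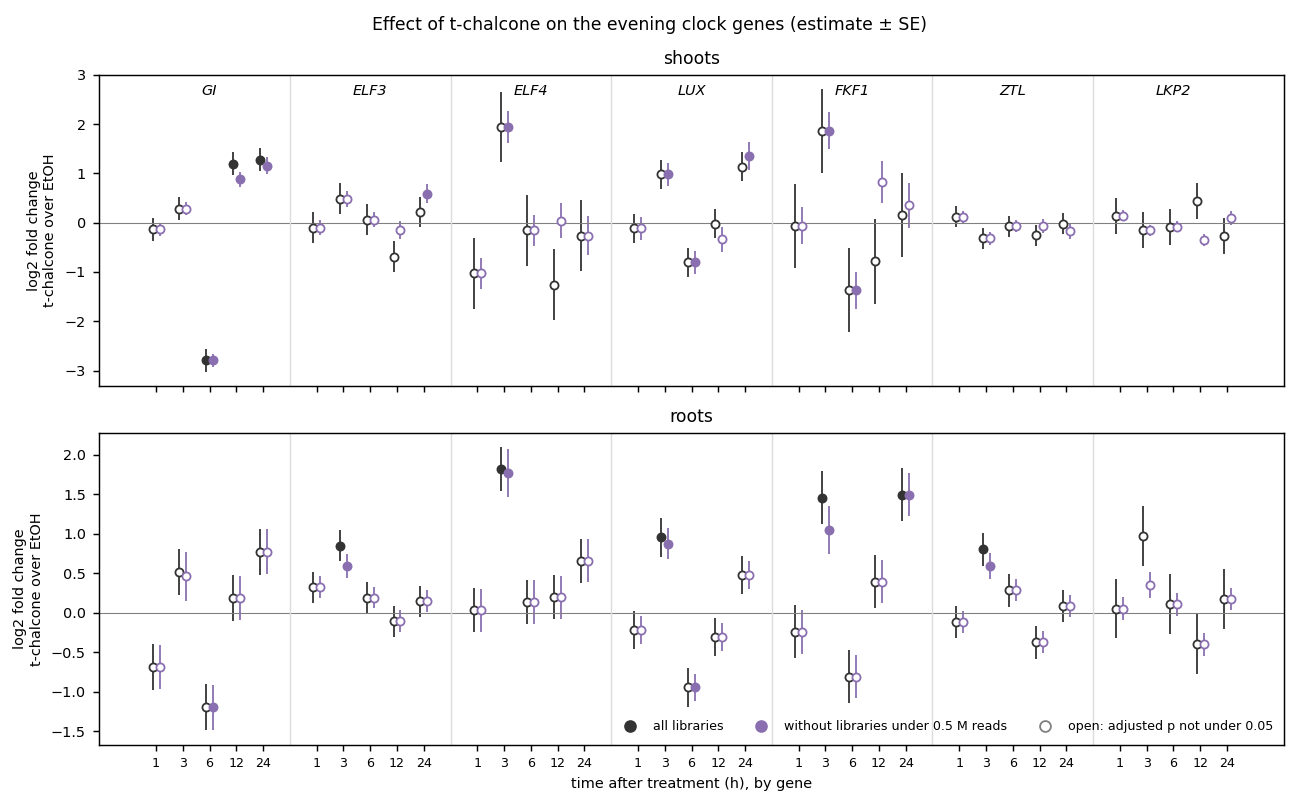
Log2 fold change of t-chalcone over EtOH for each gene at 1, 3, 6, 12 and 24 h in shoots (top) and roots (bottom), with limma's standard error, over all libraries and without those under 0.5 M. Filled points had an adjusted p under 0.05: GI in shoots went from -2.80 at 6 h to 1.20 at 12 h and 1.28 at 24 h, and 5 genes rose at 3 h in roots.

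GI had the largest single effect. In shoots at 6 h its values were 1571, 1628 and 1522 in EtOH and 265, 194 and 224 in t-chalcone. Every treated library was far below every control library. The difference was -2.80 ± 0.23 on the log2 scale (adjusted p = 1.79e-09), and it passed the test under every alternative run, including each left-out library. At 12 h GI read 76.5, 40.5 and 80.6 in EtOH and 167, 140.0 and 132 in t-chalcone, and at 24 h 107, 124 and 83.8 and 275, 244 and 241. The groups did not overlap at either time, and now t-chalcone was the higher one. The effects were 1.20 ± 0.23 and 1.28 ± 0.23 (adjusted p = 0.00798 and 0.00291). In 1 EtOH library at 12 h, which is under 0.5 M, GI was at the lowest value. Without the libraries under 0.5 M the effect at 12 h was 0.88 ± 0.15 (adjusted p = 0.00119). Without replicate 1 of t-chalcone alone it lost its call (1.10, adjusted p = 0.0988).

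At 1 h and 3 h in shoots the libraries of GI overlapped between treatments, and its effects were -0.14 ± 0.23 and 0.29 ± 0.23. In roots GI at 6 h was 573, 284 and 185 in EtOH and 169, 139 and 105 in t-chalcone. The treated libraries were all below the controls, which themselves spread widely, and the difference was -1.20 ± 0.29 (adjusted p = 0.0548, or 0.0235 without the libraries under 0.5 M). At the other times in roots GI was at -0.69 ± 0.29 at 1 h, 0.51 ± 0.29 at 3 h, then 0.19 ± 0.29 at 12 h and 0.77 ± 0.29 at 24 h, none of them called. The effect on GI differed between times in both tissues by an F test of the 5 effects (adjusted p = 0.00503 in roots and 3.67e-09 in shoots).

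ELF4 had the largest rise of the 7 genes in roots at 3 h. There its values were 106, 98.2 and 141 in EtOH and 419.5, 378 and 410.1 in t-chalcone. The groups were far apart, and the treated libraries overlapped the control libraries of 1 h. The effect was 1.81 ± 0.28 (adjusted p = 4.03e-05), and 1.76 ± 0.31 without the EtOH library under 0.5 M (adjusted p = 0.000237). In shoots the same comparison gave 15.1, 15.3 and 10.7 against 49.9, 53.7 and 62.2. Again every treated library was above every control, by 1.94 ± 0.71 over all libraries (adjusted p = 0.635) and 1.94 ± 0.32 without those under 0.5 M (adjusted p = 0.000996). The estimate is the same in both because no library of the 3 h shoot groups was under 0.5 M, and the shared spread is what differs.

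At 1 h in shoots ELF4 was lower with t-chalcone in every library, at 129.9, 86.1 and 147 in EtOH and 48.2, 55 and 70.9 in t-chalcone. This difference of -1.03 ± 0.71 did not pass limma (adjusted p = 1, or 0.188 without the libraries under 0.5 M), and edgeR on the recovered reads called it (-1.12, adjusted p = 0.0075). At 6 h, when ELF4 was at its highest, the treatments overlapped in both tissues, with effects of 0.13 ± 0.28 in roots and -0.16 ± 0.71 in shoots. At 12 h and 24 h its shoot values were 0.634 to 40.5, in part the lowest of their libraries, and no fold is given. In roots at those times its effects were 0.20 ± 0.28 and 0.66 ± 0.28, neither called.

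LUX at 3 h in roots was 176, 196 and 222 in EtOH and 339.9, 405 and 409 in t-chalcone. All treated libraries were higher, by 0.95 ± 0.24 (adjusted p = 0.00949). In shoots it was 153, 184 and 177 against 290.1, 353 and 384, also without overlap, a difference of 0.99 ± 0.29 that passed limma without the libraries under 0.5 M and not with them (adjusted p = 0.362 with and 0.0136 without them). At 6 h the order turned. Roots held 449, 391 and 397 in EtOH and 213, 209.6 and 217 in t-chalcone, and shoots 869, 733 and 819.7 and 463, 415 and 511. Treated libraries were lower in both tissues without overlap, by -0.95 ± 0.24 in roots (adjusted p = 0.082, or 0.00269 without the libraries under 0.5 M) and -0.80 ± 0.29 in shoots (adjusted p = 0.25 or 0.0123). At 24 h in shoots LUX read 49.9, 15.4 and 41.9 in EtOH and 75.4, 69.6 and 70.2 in t-chalcone. The treated libraries were higher and close to each other, and the effect of 1.14 ± 0.29 stood at an adjusted p of 0.0502, or 0.00301 without the libraries under 0.5 M (1.35 ± 0.28). That fit drops 1 library of each of the groups compared, and edgeR did not call LUX there with or without those libraries. The effect on LUX differed between times in both tissues (adjusted p = 0.00288 in roots and 0.0175 in shoots).

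ELF3 at 3 h in roots was 353, 607 and 599 in EtOH and 931, 885 and 905 in t-chalcone. The treated libraries were tightly grouped above the controls, and the lowest control came from the library under 0.5 M. The effect was 0.85 ± 0.20 (adjusted p = 0.00469), and 0.59 ± 0.15 without such libraries (adjusted p = 0.0121). In shoots at 3 h ELF3 was 344, 353 and 349 against 389.8, 559 and 537, a difference of 0.49 ± 0.31 that was not called (adjusted p = 1 with and 0.0631 without the libraries under 0.5 M). At 6 h, when LUX and GI were lower, ELF3 was at 0.19 ± 0.20 in roots and 0.06 ± 0.31 in shoots. Its F test between times did not pass in either tissue (adjusted p = 0.148 and 0.511), although without the libraries under 0.5 M it passed in shoots (0.0483). At 24 h in shoots ELF3 ran from 84.9 to 126 in EtOH and from 87.0 to 190 in t-chalcone, so the libraries overlapped. Limma and edgeR called it higher there without the libraries under 0.5 M, and neither did over all libraries. Those fits drop 1 library of each of the groups compared.

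FKF1 moved like LUX at 3 h and 6 h. In roots at 3 h its values were 35.3, 78.9 and 87.9 in EtOH and 182, 176 and 162 in t-chalcone. The treated libraries were higher, and 1 control was at the lowest value of a library under 0.5 M. The effect was 1.45 ± 0.34 (adjusted p = 0.00422), or 1.04 ± 0.31 without such libraries (adjusted p = 0.029). In shoots at 3 h they were 37.1, 36 and 36 and 63.5, 179 and 218. The controls were close together, the treated libraries were all above them and spread widely, and the effect was 1.87 ± 0.85 (adjusted p = 0.962 with and 0.00557 without the libraries under 0.5 M).

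At 6 h in shoots FKF1 was 659, 588 and 674 in EtOH and 255, 199.9 and 292 in t-chalcone. Every treated library was far below every control, and the effect was -1.37 ± 0.85 (adjusted p = 0.793 with and 0.00847 without the libraries under 0.5 M). In roots at 6 h it was 102, 86.3 and 97.2 against 62.6, 53.8 and 46, lower in every treated library, at -0.81 ± 0.34 and not called by limma (adjusted p = 0.757); edgeR called it (-0.76, adjusted p = 0.0179). The effect differed between times in roots (adjusted p = 0.00257), and in shoots by edgeR and, with limma, without the libraries under 0.5 M (0.000698, against 0.5 with them).

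FKF1 at 24 h in roots was low in every library. Its values were 4.71, 2.1 and 3.37 in EtOH and 13.2, 6.28 and 15.7 in t-chalcone, which correspond to recovered whole numbers of 11, 4 and 5 in EtOH and 2, 2 and 6 in t-chalcone. The normalised values were all higher with t-chalcone, in libraries with totals of 0.866, 1.83 and 2.19 M. The effect of 1.49 ± 0.34 (adjusted p = 0.0197) was not called by edgeR on those whole numbers (1.86, adjusted p = 0.097). It was also not called when replicate 2 or 3 of EtOH (1.26 and 1.51) or replicate 1 or 3 of t-chalcone (1.37 and 1.25) was left out. All 3 of these t-chalcone libraries carry an S number in place of an index sequence in their descriptions and none of the EtOH ones at 24 h does, so the treatment and that possible library batch cannot be told apart at 24 h in roots. With a term for the S number in limma, 0 of all genes were called there and 749 had an unadjusted p under 0.05, while edgeR without that term called 269.

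ZTL rose at 3 h in roots, from 106, 132 and 206 in EtOH to 255, 258 and 234 in t-chalcone. The groups did not overlap, and the lowest control was the library under 0.5 M. The effect was 0.80 ± 0.21 (adjusted p = 0.0101), and 0.59 ± 0.16 without such libraries (adjusted p = 0.0169). In shoots at 3 h the treatments overlapped, at 352, 333 and 321 and 267, 334 and 218. LKP2 at 3 h in roots was 35.3, 121 and 142 in EtOH and 144, 184 and 176 in t-chalcone. Its effect was 0.97 ± 0.38 over all libraries (adjusted p = 0.0829) and 0.35 ± 0.16 without the libraries under 0.5 M, which held it at their lowest values. In the other 9 comparisons ZTL ran from -0.37 to 0.28 and LKP2 from -0.40 to 0.44, none of them called.

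When only replicate 1 of EtOH at 3 h in roots was left out, the effects there were 0.59 for ELF3, 0.87 for LUX, 1.05 for FKF1 and 0.59 for ZTL, and none of these 4 was called (adjusted p = 0.0714, 0.0579, 0.0679 and 0.118), while ELF4 stayed called. When both root libraries under 0.5 M were left out, all 5 were called, as given above. In the reference annotation (assembly TAIR10.1, used for names and neighbours only) ELF3, LUX and FKF1 each overlap another gene, AT2G25940, AT3G46650 and AT1G68060. The use of strand in counting is not stated in the labels, so reads of such a pair cannot be told apart. None of these 3 neighbours passed limma's test for t-chalcone in any of the 10 comparisons.

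The effect of t-chalcone differed between times for GI, ELF4, LUX and FKF1 in roots, 4 of the 7 where 8.21% of all genes were called, and for GI and LUX in shoots, 2 of the 7 where 2.68% were called. Without the libraries under 0.5 M it did so for 5 of the 7 in each tissue, where 16.8% and 33.4% of all genes were called.

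Between roots and shoots, limma over all libraries called no difference in the effect of t-chalcone on the 7 genes, while other settings did. With limma, 0 of 7 were called at each of 1, 3, 6, 12 and 24 h, where 0.118%, 0.0655%, 0.201%, 0.149% and 1.31% of all genes were called, and 0, 2, 1, 1 and 0 had an unadjusted p under 0.05. The nearest were GI at 6 h, where the effect in roots minus that in shoots was 1.60 ± 0.38 (adjusted p = 0.053), and ZTL at 3 h (1.12 ± 0.30, adjusted p = 0.103). Without the libraries under 0.5 M both passed (0.002 and 0.00762). With edgeR both passed too (0.00281 and 0.0126), and so did ELF4 at 1 h (1.14, adjusted p = 0.00339).

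The levels themselves were compared between tissues in EtOH, where calls were common over the whole table. The count of calls is therefore not read as a trait of these genes. Of the 42 pairs of gene and time, 24 were called, where 50.1%, 43.7%, 46.7%, 43%, 54.3% and 46.8% of all genes were called from 0 h to 24 h. ZTL was lower in roots at all 6 times, by -0.52 ± 0.21 at 1 h to -1.56 ± 0.21 at 0 h. ELF4 was higher in roots at 0, 1, 3 and 12 h, with 3.04 ± 0.56 at 0 h and 2.98 ± 0.56 at 3 h, and without the libraries under 0.5 M at all 6 times. GI was higher in roots at 0 h (0.75 ± 0.27), lower at 1 h (-0.71 ± 0.27) and 6 h (-2.33 ± 0.27), and higher again at 12 h (2.32 ± 0.27) and 24 h (1.99 ± 0.27). LUX was lower in roots at 1 h and 6 h (-1.05 ± 0.27 and -0.97 ± 0.27) and higher at 24 h (0.90 ± 0.27). FKF1 was lower in roots at 6 h (-2.74 ± 0.67), ELF3 lower at 0 h (-0.67 ± 0.26) and higher at 12 h and 24 h (0.82 ± 0.26 and 1.77 ± 0.26), and LKP2 lower at 0 h and 3 h (-1.65 ± 0.38 and -1.07 ± 0.38). With the libraries under 0.5 M left out, LKP2 was at -0.94 ± 0.14 and -0.44 ± 0.14 at 0 h and 3 h. In the same fit ELF3 was at -0.41 ± 0.17 at 0 h and 1.36 ± 0.17 at 12 h. ELF4 was at 2.77 ± 0.34 at 12 h without those libraries, against 1.48 ± 0.56 with them.

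The other genes of the pathway were read in lists of partners and targets. At 3 h in roots 13.6% of all genes were called, and the lists' counts, 1 or 2 genes each, were near that share. BOA, a close relative of LUX, rose by 1.15 ± 0.31, as 1 of the 5 evening complex relatives tested. TOC1, the pseudo-response regulator that ZTL marks for degradation, rose by 1.14 ± 0.17 (adjusted p = 2.25e-05), as 1 of 5 pseudo-response regulators. LHY, a morning repressor of evening genes, fell by 1.08, as 1 of 7 morning and day genes. CDF2, which represses CO, rose by 0.95 ± 0.27, as 1 of 5 photoperiod genes. Among 8 SCF and chaperone partners HSP90.1, a heat-inducible chaperone, rose by 2.65 ± 0.46 and CUL1, the cullin of the SCF ligases, by 0.40 ± 0.11. CDF2 and CUL1 were no longer called without the libraries under 0.5 M. Of the 8 root markers PRP3 was lower at 3 h (-1.25 ± 0.33) and no shoot marker was called, and their part in these rises was not tested. HSP90.1 had already risen at 1 h in roots (2.43 ± 0.46, adjusted p = 0.00073), the only call among the clock, photoperiod and partner lists there (4.61% of all genes called), while 4 of 8 root markers were lower.

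At 6 h in shoots, where 1.55% of all genes were called (23.2% without the libraries under 0.5 M), genes of several lists fell. Of 5 pseudo-response regulators, which repress CCA1 and LHY through the day, 3 fell. The falls were 4.71 for PRR9, 3.37 for PRR7 and 2.73 for PRR5 on the log2 scale. In t-chalcone PRR9 ran from 0.784 to 1.46, close to the lowest values of those libraries (0.392 to 0.486). Its fall is thus against a nearly undetected level and is no measured fold. PRR7 stood at 2409 ± 154 (SD, n = 3) in EtOH and 237 ± 54.8 in t-chalcone. PRR3 and TOC1, whose levels were among those most like FKF1, were at -0.04 ± 0.56 and -0.18 ± 0.24 and were not called. Of 7 morning and day genes 3 fell, namely the coactivators LNK2 (-3.38 ± 0.38) and LNK1 (-3.02 ± 0.69) and CCA1 (-2.61 ± 0.34). Both growth-promoting targets of the evening complex fell, PIF4 by 3.30 and PIF5 by 2.31, from 1125 ± 168 to 113 ± 11 for PIF4.

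Of 6 photoperiod genes at 6 h in shoots, CDF3 fell (-2.46 ± 0.22) and FT, the mobile flowering signal, rose (3.13 ± 0.81, from 3.36 ± 1.75 to 34.7 ± 3.19). In replicate 2 of EtOH, FT was at the lowest value of the library (1.33). The rise of FT is thus in part against an undetected level. ELF4-L2, a relative of ELF4, fell (-0.93 ± 0.21) as 1 of 6 relatives, and HSP90.2 rose (1.02 ± 0.25) as 1 of 8 partners. Of the 8 shoot markers 5 were lower at the same time, from -0.73 for PSBO1 to -5.95 for CAB2, and none was higher over all libraries. Without the libraries under 0.5 M, RBCS1A, RCA and GAPA were called higher, at 0.47 to 0.69. The part of these shoot genes in the fall of GI was not tested.

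The later times held fewer calls. In roots at 6 h PRR7 fell (-1.61 ± 0.27, adjusted p = 0.0019), the only call of these lists there (0.449% of all genes called). In shoots PRR9 rose at 12 h (1.93 ± 0.40, 0.76% of all genes called) and PRR7 at 24 h (1.27 ± 0.24, 1.14%). At 24 h in roots 5 of 7 morning and day genes fell, where 1.91% of all genes were called (12.8% without the libraries under 0.5 M), with LHY at -1.23 ± 0.33, CCA1 at -1.13 ± 0.30 and RVE8 at -1.06 ± 0.26, and PRR5 rose (1.29 ± 0.25), in the same libraries that differ in the S number. The medians there were -1.01 for the morning and day genes, 0.48 for the 7 genes described here and -0.15 over all genes. No list gene was called at 1 h or 3 h in shoots or at 12 h in roots over all libraries. Without those under 0.5 M, at 3 h in shoots, where 6.84% of all genes were called, BOA (1 of 5), PRR3 and TOC1 (2 of 5) rose and LHY, RVE8, CCA1 and LNK2 (4 of 7) fell, at 2.05 ± 0.28 for BOA, 1.77 ± 0.23 for PRR3 and -1.50 ± 0.33 for LHY. In the same comparison 6 of 8 shoot markers were lower, and their part in these changes was not tested.

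**Figure D4:**
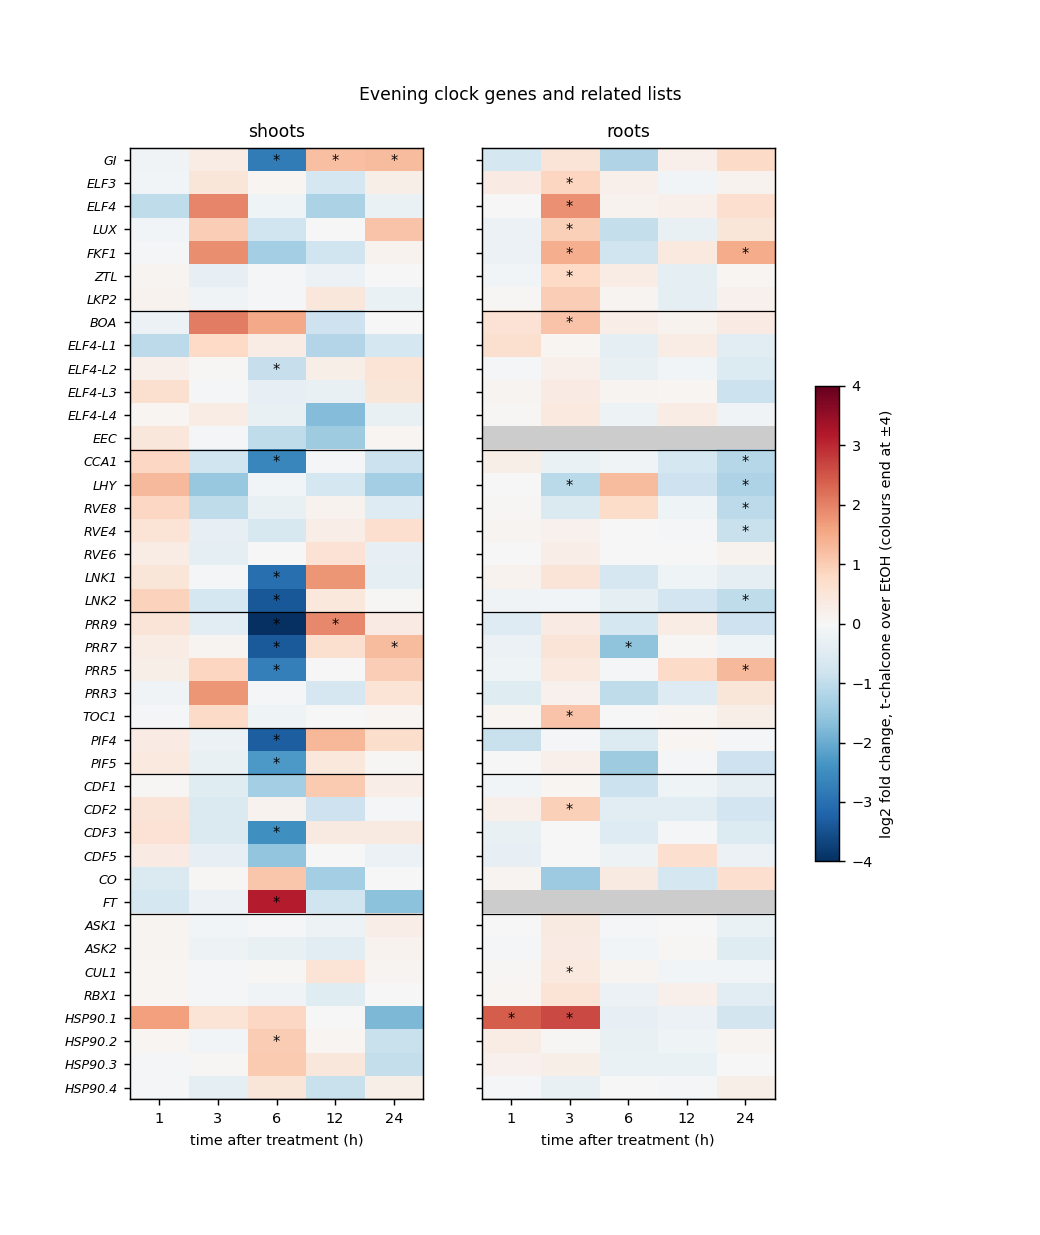
Log2 fold change of t-chalcone over EtOH (colour, ends at 4 and -4) for the 7 genes and the related lists, by time, in shoots (left) and roots (right). Stars mark an adjusted p under 0.05 over all libraries and grey marks genes not tested. At 6 h in shoots GI, PRR9, PRR7, PRR5, LNK1, LNK2, CCA1, PIF4, PIF5 and CDF3 were lower, and at 3 h in roots ELF3, ELF4, LUX, FKF1 and ZTL were higher.

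Over the 22 groups, with each tissue's mean taken away, the most alike of the 7 genes were LUX and FKF1 (Pearson's r = 0.96 over group means), ELF4 and FKF1 (0.93) and ELF3 and LUX (0.91). GI was less like the complex (0.38 with ELF4, 0.55 with ELF3, 0.68 with LUX), and ZTL was near 0 with ELF3, ELF4 and LUX (0.04, -0.06 and -0.07). These are descriptions over group means that share libraries, times and depth. Among 12614 genes, those most like LUX were BBX13 (0.97), TOC1 (0.97) and FKF1, those most like FKF1 were TOC1 (0.97), BBX8 (0.96) and PRR3 (0.96), and those most like ELF4 were BBX8 (0.95), COL9 (0.95) and JMJD5 (0.94). ELF3 was most like TAG1 (0.94), CP29 (0.94) and BBX13 (0.94), and GI most like RD19, CBSX3 and ACO1 (0.88 each). ZTL was most like HAC1 (0.84), TOP1ALPHA (0.81) and THO2 (0.80), and LKP2 most like LECRKA4.3 (0.90), ASG7 (0.90, or 0.63 without the libraries under 0.5 M) and ARABIDILLO-1 (0.89).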

How the data were processed

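The deposited values are a signal per gene and library: counts that, per the submitters' processing notes, went through DESeq2 1.14.1 on TAIR10, scaled to library size by the authors. The aligner, the counter and any use of strand are not given in the labels. Every value was a whole multiple of its column's lowest value within 0.01 (100% of values), so reads were recovered as whole numbers from 1, up to a factor per library.

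Genes at 10 or more in 3 or more libraries were tested as log2(value + 1), which understates changes of low genes, with limma 3.58.1 (R 4.3.3, trend, 1 mean per group), two-sided, with Benjamini-Hochberg adjustment at 0.05 over 19835 genes in roots and 22884 in shoots. Over all libraries the filter removed no gene in shoots, where the lowest values of the 3 libraries under 0.5 M were 40.5, 21.0 and 17.4. Shares of all genes called in shoots over all libraries therefore include undetected genes. The setting without a filter repeats the main fit there. Scripts were tested on simulated data. Groups came from the labels. Alternatives were edgeR 4.0.16 on the recovered reads, TMM scaling, a pseudocount of 8, no filter, only the groups compared, a term for the 7 S-number libraries, and leaving out libraries under 0.5 M or each library in turn. Likeness covers genes with a mean of at least 50 in both tissues.

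The text names the 7 genes, the 3 genes with a symbol most like each, and up to 3 called genes per list and t-chalcone comparison with the largest change. Marker genes, overlapping neighbours, and list genes called only without the libraries under 0.5 M were named after their values were seen. The 7 genes and the lists were chosen with earlier results of these data known.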

Additional observations from a re-analysis of the deposited data

Results flagged for a closer look

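The effect of t-chalcone differed between the 5 times in 6 tests of a gene within a tissue, by limma's F test on the 5 differences from EtOH. In roots the adjusted p was 0.00503 for GI, 0.00257 for FKF1, 0.0106 for ELF4 and 0.00288 for LUX. In roots the effects of ELF4, LUX and FKF1 at 3 h were 1.81, 0.95 and 1.45 on the log2 scale, those of LUX and FKF1 at 6 h -0.95 and -0.81, and that of FKF1 at 24 h 1.49. In shoots the adjusted p was 3.67e-09 for GI, whose effect was -2.80 at 6 h and 1.28 at 24 h, and 0.0175 for LUX, at 0.99 at 3 h, -0.80 at 6 h and 1.14 at 24 h. The test called 8.21% of all genes in roots and 2.68% in shoots, or 16.8% and 33.4% without the libraries under 0.5 M.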

How the results depend on the processing

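For t-chalcone in shoots, 3 of 35 gene and time pairs were called; edgeR called 9, limma without the libraries under 0.5 M 10, edgeR without them 12 (an alternative chosen after seeing the data), and fits of only the groups compared 6. In roots 6 of 35 were called and 5 to 8 under these settings. For EtOH against 0 h in shoots 15 were called, against 23 by edgeR, 26 without the libraries under 0.5 M and 27 by edgeR without them; in roots 20, against 13 with only the groups compared. The F test between times called 2 genes in shoots, 5 by edgeR, 5 without the libraries under 0.5 M and 6 by edgeR without them. The difference between tissues called 0, against 1 with TMM, a pseudocount of 8, the S-number term or only the groups compared, 2 without the libraries under 0.5 M, 3 by edgeR and 4 by edgeR without them. Leaving out each library gave 2 to 7 calls for t-chalcone in roots, 2 to 5 in shoots, 16 to 24 for EtOH in roots, 14 to 16 in shoots, 0 to 3 for the tissue difference of the effect and 22 to 25 for the levels between tissues. Of 1932 single values under other settings, 1743 kept their side of the threshold, 32 lost and 151 gained a call. A further 6 turned in sign with a call in either fit. A turn of sign without a call in either fit was counted as kept, and F tests have no direction. FKF1 in roots minus shoots at 12 h in EtOH went from -0.42 to 1.19 without the libraries under 0.5 M and 2.25 by edgeR without them. LKP2 in the same contrast went from 0.23 to -0.51 by edgeR, -0.56 without those libraries and -0.50 by edgeR without them, and for t-chalcone in shoots at 12 h from 0.44 to -0.33 by edgeR without them. At 12 h LKP2 is at the lowest value of the shoot EtOH library under 0.5 M and FKF1 at that of all 3 shoot EtOH libraries, so the differences of FKF1 are against an undetected group and are no measured folds.

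Over all genes, t-chalcone calls at 1, 3, 6, 12 and 24 h in shoots were 11, 8, 355, 174 and 262, against 181, 294, 2756, 555 and 533 by edgeR and 92, 1307, 4430, 830 and 2438 without the libraries under 0.5 M. In roots they were 914, 2688, 89, 6 and 378, against 2963, 2551, 278, 471 and 269 by edgeR and 1697, 1646, 239, 138 and 2476 without those libraries, and 0 at 24 h with the S-number term. TMM moved the share of higher calls at 24 h in shoots from 46.6% to 59.6%. The cause of these differences was not tested. No paired analysis was possible because the labels carry no replicate numbers, and those used here only name samples in accession order.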

Other observations

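The morning genes CCA1 and LHY were named after their values were seen. In shoots in EtOH CCA1 stood at 431 ± 32.6 at 0 h and 68.5 ± 8.63 at 1 h, then 748 ± 211 at 3 h and 67.7 ± 24.4 at 6 h, and finally 4122 ± 2180 at 12 h and 3118 ± 261 at 24 h, each a mean ± SD of n = 3 libraries. In shoots its level was higher at 0 h and 3 h, when LUX and FKF1 were lower, than at 1 h and 6 h, when they were higher. In roots CCA1 was lower at 6 h (4.69 ± 3.04) than at 0 h (68.2 ± 11.3), as GI was. By the labels 24 h is the same time of day as 0 h, yet CCA1 at 24 h was 2.85 higher than at 0 h in shoots and 2.34 higher in roots on the log2 scale, and LHY 4.47 and 3.48 higher, all past limma's test (adjusted p from 1.08e-09 to 1.02e-06).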
